A study of Mus musculus with 10 samples.

Results

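The transcripts of 80 transporter-family genes were compared in the liver of lactating mice on diets of high or low glycaemic index. The genes carry the symbols of the ATP-binding cassette (ABC) subfamilies Abca to Abcg, of the organic anion transporting polypeptides (Slco), of the organic cation and anion transporters (Slc22a) and of the toxin extruders (Slc47a). They were found by symbol alone, on 150 of the 45037 probe sets tested and among 18193 named genes, and each gene is read at whichever of its probe sets was brightest on average. The members were 14 Abca, 7 Abcb, 10 Abcc, 3 Abcd, 1 Abce, 3 Abcf, 6 Abcg, 15 Slco, 20 Slc22a and 1 Slc47a gene. Abcb11 and Slc22a5 were kept apart from the members, and their values are given with the other genes of hepatic transport.

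All 10 mice were of the QSi5 strain, and each gave 1 array. From pregnancy up to the time of greatest milk yield, 5 ate the HGI diet, of which glucose made up 51.4% by weight, and the other 5 the LGI diet, with a starch rich in amylose (Hi-Maze) in the same share. The HGI diet held 15.6 and the LGI diet 16.3 MJ/kg. Every HGI mouse is labelled as in positive and every LGI mouse as in negative energy balance, so that diet, energy density and energy balance cannot be told apart. No age is given in the labels. Values are deposited log2 expression values of whole liver, and every difference is HGI minus LGI. A lower value can come from fewer cells of a type or from less RNA per cell, which cannot be told apart in whole tissue.

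Hepatocytes take organic anions and cations from sinusoidal blood through Slco and Slc22a carriers and pass them on, often as conjugates, across the opposite, canalicular membrane into bile. The ABC exporters are driven by ATP. Abcc2, Abcg2, Abcb1a, Abcb4 and the Abcg5 and Abcg8 pair work at the canaliculus, while Abcc3 and Abcc4 return conjugates and bile acids to the blood. Other ABC proteins sit in peroxisomes, mitochondria or lysosomes, and the Abce and Abcf proteins have no membrane part and act in translation.

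None of the 80 members passed the test across all probe sets. The members that lay farthest from equality were Abcc3 and Abcc4, the sinusoidal exporters, which were 2.90-fold and 2.41-fold lower in HGI. Abcg5 and Abcg2 of the canaliculus stood at -0.73 and -0.54 on the log2 scale. Abcc9, Abca8b and Slco1a1 lay the other way, at 0.61, 0.57 and 0.57. At an adjusted p under 0.05 in limma, 0 of 80 members were called, where 0.0824% of all named genes were. At an unadjusted p under 0.05, 10 members were lower and 3 higher, beside 6.23% of all named genes lower and 3.07% higher. The HGI and LGI mice did not overlap at 4 members, Abcc3, Abcc4, Abcg2 and Slc22a4, each lower in HGI, where 2.17% of all named genes had no overlap and 1.67% had none and were lower. Of the 37 members whose mean log2 reached 6, 6 were lower and 3 higher, beside 9.79% and 3.81% of named genes that bright, and 2 had no overlap, both lower, beside 3.53% in either direction and 2.86% lower.

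By subfamily the medians were small. The median difference was -0.23 for both Abcb and Abcg, 0.06 for Abca, -0.02 for Abcc, -0.02 for Abcd, -0.03 for Abce and Abcf together, -0.06 for Slco and 0.04 for Slc22a, and the single Slc47a gene stood at 0.13. The median of all 80 members was -0.02 and that of all named genes -0.03, and 43 of the 80 lay below 0, beside 58.2% of all named genes. In Abcb all 7 members lay below 0 (6 without HGI 1 and LGI 4), and in Abcg 5 of 6. Without array HGI 1 the medians were -0.09 for Abcb, 0.03 for Abcc, 0.07 for Abcd, 0.02 for Abce and Abcf and 0.003 for all members, so that all of these but Abcb turned sign. The Abca median was 0.02 without LGI 4. In Abca 10 of 14 and in Slc22a 14 of 20 members lay above 0, and the Slc22a median was -0.01 without LGI 4.

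**Figure D1:**
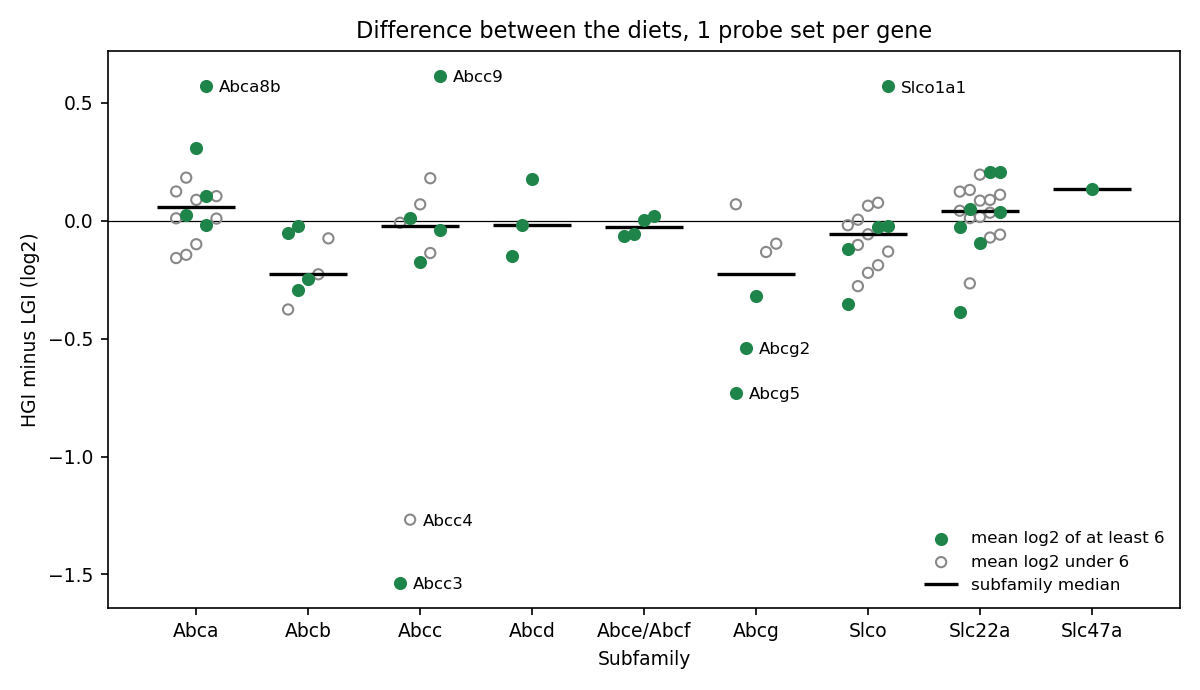
Difference between the diets (HGI minus LGI, log2, vertical axis) for each of the 80 members by subfamily, with filled points for the 37 genes whose mean log2 reached 6, open points for the other 43 and a bar at the subfamily median. Most points lie within 0.4 of 0, Abcc3 and Abcc4 lie below -1.2, and Abcc9, Abca8b and Slco1a1 are the highest.

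Array HGI 1 stood apart: its values had an SD of 2.16 against 2.26 to 2.31 on the other 9 arrays, and it held the lowest of the 10 values at 54.2% of named genes whose mean log2 reached 6. Among the 37 members at that level it was lowest at 18, and LGI 4 was lowest at 10 (13.4% of named genes). As a sign of RNA quality, Gapdh control probe sets at the 3' end exceeded those at the 5' end by 0.55 ± 0.28 in HGI and 0.59 ± 0.21 log2 in LGI (SD, n = 5 each, two-sided exact permutation p = 0.762). Without HGI 1 and LGI 4, 9 members were lower and 3 higher at an unadjusted p under 0.05, 6 had no overlap and 0 passed. Of all named genes, 5.74% were lower, 5.13% higher, 6.78% without overlap and 0.209% called at that setting.

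Abcc3 (MRP3) carries glucuronides and bile acids from the hepatocyte into sinusoidal blood. Its HGI mice 1 to 5 read 6.71, 8.88, 8.82, 7.57 and 7.13 log2 and its LGI mice 9.65, 9.37, 8.94, 9.57 and 9.24. HGI 2 and HGI 3 lay close beneath the lowest LGI mouse and the other 3 HGI mice more than 1 log2 unit further down, so that no HGI mouse reached the LGI range. The group values were 7.82 ± 0.98 against 9.35 ± 0.28 log2 (SD, n = 5 each), with a difference of -1.53 ± 0.36 (SE; unadjusted p = 0.000947, adjusted p = 0.232). With each array left out in turn the difference ran from -1.80 to -1.26. The adjusted p lay between 0.0862 and 0.585 over all alternatives.

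Abcc4 (MRP4), which exports bile acids with glutathione and cyclic nucleotides, had the smallest p of the members. The HGI mice read 4.39, 4.30, 5.52, 4.38 and 4.91 log2 and the LGI mice 5.67, 5.98, 5.63, 6.01 and 6.55. HGI 3 came within 0.2 of the lowest LGI mouse and the other 4 HGI mice lay below 5. The means were 4.70 ± 0.52 against 5.97 ± 0.37 log2 (SD, n = 5 each) and the difference was -1.27 ± 0.23 (unadjusted p = 9.54e-05, adjusted p = 0.0810). Abcc4 was place 53 of 45037 probe sets by p. Without HGI 3 the difference was -1.47 and passed (adjusted p = 0.0208), while the adjusted p ran up to 0.465 over the other alternatives, highest in an unmoderated test. Abcc4 and Abcc3 were each measured by 1 probe set.

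The promoter window of Abcc4 is shown because this member had the smallest p. Windows run from 250 bases before to 50 after an annotated start, in RefSeq's GRCm38.p6 table, which held a window for 65 of the 80 members. Capitals mark, on either strand, the core TGANNNNGC of the antioxidant response element bound by NRF2, the core GCGTG of the element bound by the aryl hydrocarbon receptor, a motif of nuclear receptors spelled AGGTCA, and the motif of GATA factors, which is written GATAAG. These motifs were present in 41.3%, 32.4%, 16.3% and 7.44% of all 32851 windows of this length, and in 40.3%, 23.4%, 14.3% and 9.09% of the members' 77 windows. The first of the Abcc4 starts (minus strand, the farther upstream of the 2 in the table) is at chr14:118706170-118706469.
Abcc4: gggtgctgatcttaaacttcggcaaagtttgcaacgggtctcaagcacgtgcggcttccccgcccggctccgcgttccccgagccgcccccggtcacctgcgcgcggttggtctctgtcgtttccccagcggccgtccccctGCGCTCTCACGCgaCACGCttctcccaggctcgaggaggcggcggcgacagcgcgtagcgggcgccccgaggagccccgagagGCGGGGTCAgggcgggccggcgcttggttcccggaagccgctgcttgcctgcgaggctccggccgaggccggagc
This window holds 2 matches to the antioxidant core and 2 to the aryl hydrocarbon receptor core, of which 1 of each overlap. The window of the other Abcc4 start holds 1 match to the antioxidant core and none to the other motifs. A match is a description of the letters and no site of binding.

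**Figure D2:**
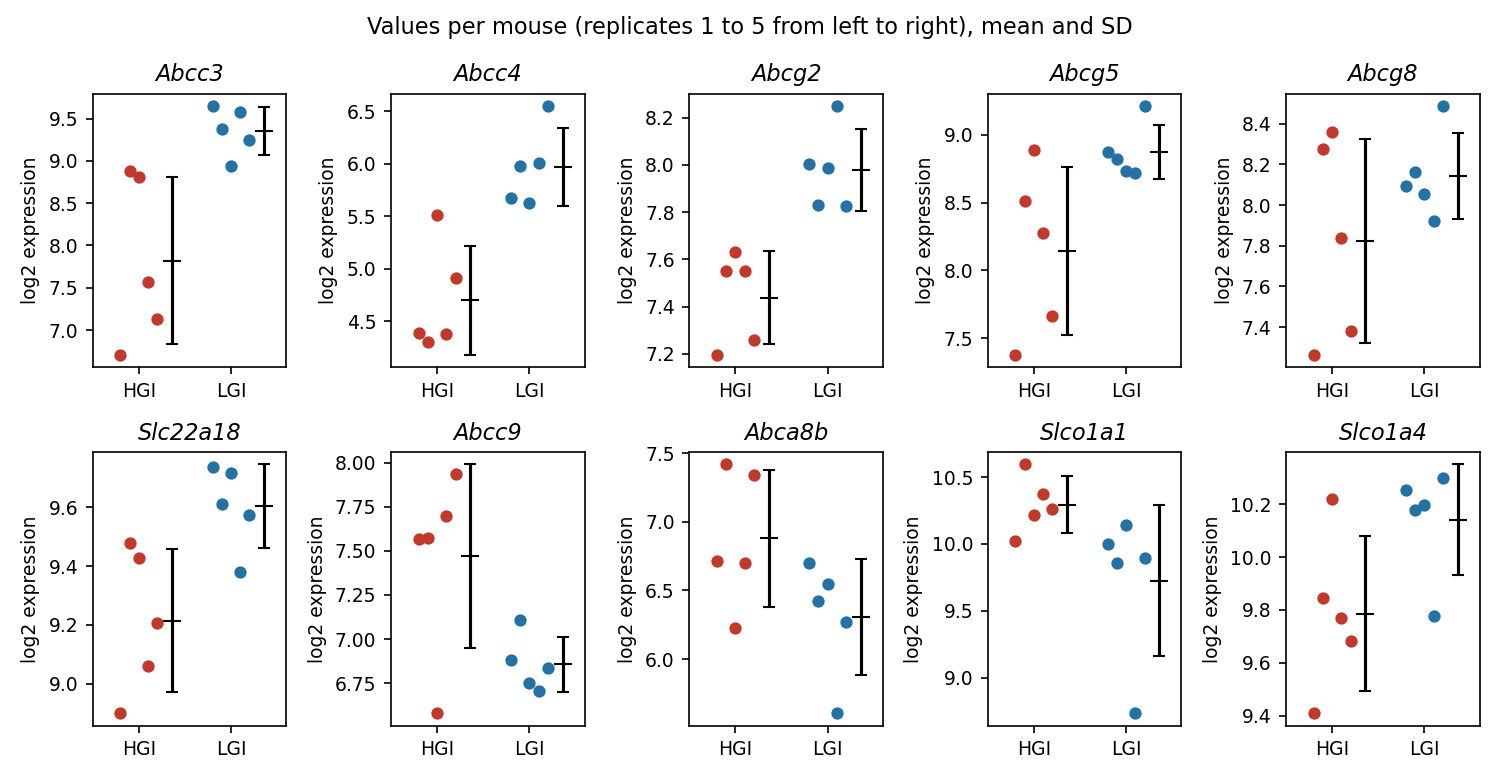
Log2 expression (vertical axes, a scale of its own for each gene) of 10 members in each HGI and LGI mouse, with the mean and SD of 5 mice. Abcc3, Abcc4 and Abcg2 show no overlap between the diets, and at Slco1a1 and Abca8b the lowest LGI point is LGI 4.

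At the canalicular membrane, 6 of 7 members (Abcb1a, Abcb4, Abcc2, Abcg2, Abcg5, Abcg8 and Slc47a1) lay below 0. So did 58.2% of all named genes and 62.1% of those whose mean log2 reached 6. Of the 7 members only Abcb1a, with a mean of 5.19, was dimmer than that. The median of the 7 was -0.32, and -0.18 without HGI 1. In limma 0 of the 7 passed, and 2, Abcg2 and Abcg5, were lower at an unadjusted p under 0.05. At that p 6.23% of all named genes were lower, and 9.79% of those whose mean log2 reached 6. Abcg2, the breast cancer resistance protein, exports sulphate conjugates, urate and porphyrins. It read 7.20, 7.55, 7.63, 7.55 and 7.26 log2 in HGI and 8.002, 7.83, 7.99, 8.25 and 7.82 in LGI. The highest HGI mouse lay below the lowest LGI mouse, and the mice of each diet spanned less than 0.5. The means were 7.44 ± 0.20 against 7.98 ± 0.17 log2 (SD, n = 5 each), and the difference was -0.54 ± 0.11 (unadjusted p = 0.000304, adjusted p = 0.137). It stayed between -0.59 and -0.47 with each array left out.

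Abcg5 and Abcg8 form together the pump that moves cholesterol and plant sterols into bile. Abcg5 read 7.38, 8.51, 8.89, 8.28 and 7.66 log2 in HGI and 8.87, 8.82, 8.74, 8.72 and 9.21 in LGI. Only HGI 3 lay inside the LGI range, and HGI 1 and HGI 5 were more than 1 unit below it. The means were 8.14 ± 0.62 against 8.87 ± 0.20 log2 (SD, n = 5 each), and the difference of -0.73 ± 0.23 had an adjusted p of 0.459. Abcg8 read 7.26, 8.27, 8.36, 7.84 and 7.38 log2 in HGI and 8.10, 8.16, 8.05, 7.92 and 8.49 in LGI. The same HGI 1 and HGI 5 were lowest, but HGI 2 and HGI 3 lay inside the LGI range, and the groups overlapped. The difference of Abcg8 was -0.32 ± 0.20 (adjusted p = 0.770) and -0.18 without HGI 1.

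The promoters of Abcg2 and Abcg5 are shown because these were the lowest canalicular members. Abcg5 and Abcg8 lie head to head on chromosome 17, and the Abcg5 window shares 209 bases with the nearer of the 2 Abcg8 windows in the table. The Abcg2 window (plus strand, the last of 3 starts in the table) is at chr6:58640296-58640595 and the Abcg5 window (minus strand) at chr17:84682962-84683261.
Abcg2: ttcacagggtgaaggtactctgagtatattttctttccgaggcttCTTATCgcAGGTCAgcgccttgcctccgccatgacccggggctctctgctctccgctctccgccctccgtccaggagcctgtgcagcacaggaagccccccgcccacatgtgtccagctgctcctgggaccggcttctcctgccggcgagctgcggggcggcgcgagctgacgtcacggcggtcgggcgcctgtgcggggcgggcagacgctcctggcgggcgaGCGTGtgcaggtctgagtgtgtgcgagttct
Abcg5: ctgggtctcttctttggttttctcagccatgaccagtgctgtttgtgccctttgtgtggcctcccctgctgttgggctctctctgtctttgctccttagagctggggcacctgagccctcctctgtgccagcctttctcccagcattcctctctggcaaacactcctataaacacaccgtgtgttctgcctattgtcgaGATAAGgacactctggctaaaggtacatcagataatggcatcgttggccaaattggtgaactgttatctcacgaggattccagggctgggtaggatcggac
The Abcg2 window shown holds 1 match each to the aryl hydrocarbon receptor core, the nuclear receptor motif and the GATA motif. The matches depend on the start chosen. At the first Abcg2 start there is 1 match to the antioxidant core and 2 to the nuclear receptor motif, and at the second no match to any motif. The Abcg5 window holds 1 match to the GATA motif, which lies in the bases shared with the nearer Abcg8 window.

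The remaining canalicular members stood between -0.38 and 0.13. Abcb4, the floppase that brings phosphatidylcholine into bile, stood at -0.25 ± 0.14 (adjusted p = 0.756), and at -0.09 without HGI 1. Abcc2 (MRP2), the main exporter of bilirubin conjugates, stood at -0.18 ± 0.13 (adjusted p = 0.821), and at -0.09 without HGI 1. Abcb1a, a P-glycoprotein for drugs, stood at -0.38 ± 0.20 (adjusted p = 0.713) and at -0.22 without HGI 1. Its dimmer probe set stood at -0.65 (adjusted p = 0.288), with the means of both diets below the median of every array. Its sister gene Abcb1b was below that median too (-0.23, adjusted p = 0.699, and -0.15 without HGI 5). Slc47a1 (MATE1), which exchanges organic cations for protons, read 10.49 ± 0.20 against 10.36 ± 0.35 log2 (SD, n = 5 each), a difference of 0.13 ± 0.15 (adjusted p = 0.906) that was -0.02 without LGI 4.

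Among the sinusoidal uptake carriers, Slco1a1 and Slco1a4 lay in opposite directions. Slco1a1, an anion carrier of the mouse hepatocyte, read 10.02, 10.60, 10.22, 10.37 and 10.26 log2 in HGI and 10.001, 9.86, 10.14, 8.73 and 9.89 in LGI. LGI 4 was the low value, more than 1 unit under the next LGI mouse, LGI 3 lay above HGI 1, and the remaining LGI mice lay below every HGI mouse. The difference was 0.57 ± 0.22 (adjusted p = 0.562), 0.63 at its second probe set (adjusted p = 0.516), and 0.32 without LGI 4 (adjusted p = 0.509). Slco1a4, a carrier of bile acids and cardiac glycosides, read 9.41, 9.85, 10.22, 9.77 and 9.68 log2 in HGI and 10.25, 10.18, 10.20, 9.78 and 10.30 in LGI. HGI 1 was lowest, LGI 4 lay among the HGI mice, and HGI 2 and HGI 3 lay inside the LGI range. Its difference was -0.36 ± 0.14 (adjusted p = 0.576).

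These 2 genes lie in the Slco1 cluster of chromosome 6, and their windows are set side by side because their differences had opposite signs. The Slco1a1 window is at chr6:141946913-141947212 and that of Slco1a4 at chr6:141856171-141856470, both on the minus strand.
Slco1a1: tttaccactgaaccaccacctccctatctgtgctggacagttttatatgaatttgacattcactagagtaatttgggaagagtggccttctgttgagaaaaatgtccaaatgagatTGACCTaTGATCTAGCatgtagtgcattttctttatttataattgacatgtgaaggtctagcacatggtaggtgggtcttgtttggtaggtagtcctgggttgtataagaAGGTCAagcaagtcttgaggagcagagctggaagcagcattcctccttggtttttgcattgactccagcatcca
Slco1a4: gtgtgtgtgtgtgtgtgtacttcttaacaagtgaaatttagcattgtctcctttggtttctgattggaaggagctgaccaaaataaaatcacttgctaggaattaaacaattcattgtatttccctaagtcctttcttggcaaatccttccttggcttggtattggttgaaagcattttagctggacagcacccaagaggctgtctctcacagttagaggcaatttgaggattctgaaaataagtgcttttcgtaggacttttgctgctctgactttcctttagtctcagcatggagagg
The Slco1a1 window holds 2 matches to the nuclear receptor motif and 1 to the antioxidant core, and that of Slco1a4 has none of the 4 motifs in these letters.

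Slco1b2, the liver-specific carrier for bilirubin and statins, stood at -0.12 ± 0.09 (adjusted p = 0.821), -0.06 without HGI 1 and between -0.19 and 0.28 at its 4 other probe sets. Slco2b1, which takes up sulphated steroids, stood at -0.02 ± 0.10 (adjusted p = 0.980). The dim Slco3a1 and Slco4c1 stood at -0.22 and -0.28 (adjusted p = 0.624 and 0.572), and Slco4c1 lay below the median of every array in both diets. The other 9 Slco genes had differences between -0.19 and 0.08.

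In the Slc22a family, Slc22a18 was the bright member farthest from 0. It is an imprinted gene for a carrier whose substrates are little known. The HGI mice read 8.90, 9.48, 9.43, 9.06 and 9.21 log2 and the LGI mice 9.74, 9.61, 9.72, 9.38 and 9.57. LGI 4 was the one LGI mouse inside the HGI range. The difference was -0.39 ± 0.12 (adjusted p = 0.413), with -0.23 at the second probe set (adjusted p = 0.842). Without HGI 1 and LGI 4 it was -0.37 and the groups did not overlap.

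Slc22a4 (OCTN1), the ergothioneine carrier, read 3.18, 3.00, 3.19, 3.09 and 3.05 log2 in HGI and 3.46, 3.23, 3.41, 3.23 and 3.50 in LGI. The groups did not overlap, but both means were under the medians of all 10 arrays, which were 3.91 to 3.97. Its difference was -0.27 ± 0.08 (adjusted p = 0.438). Slc22a7 (OAT2), a hepatic carrier of organic anions and nucleotides, stood at 0.21 ± 0.12 (adjusted p = 0.739). Slc22a26 and Slc22a27, rodent relatives of the organic anion carriers, stood at -0.10 and 0.21 (adjusted p = 0.892 and 0.885), and Slc22a27 at 0.001 without LGI 4. These genes are close copies of each other and of Slc22a29 and Slc22a30, so that probes may read more than 1 of them. The other 15 Slc22a genes lay between -0.07 and 0.20.

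**Figure D3:**
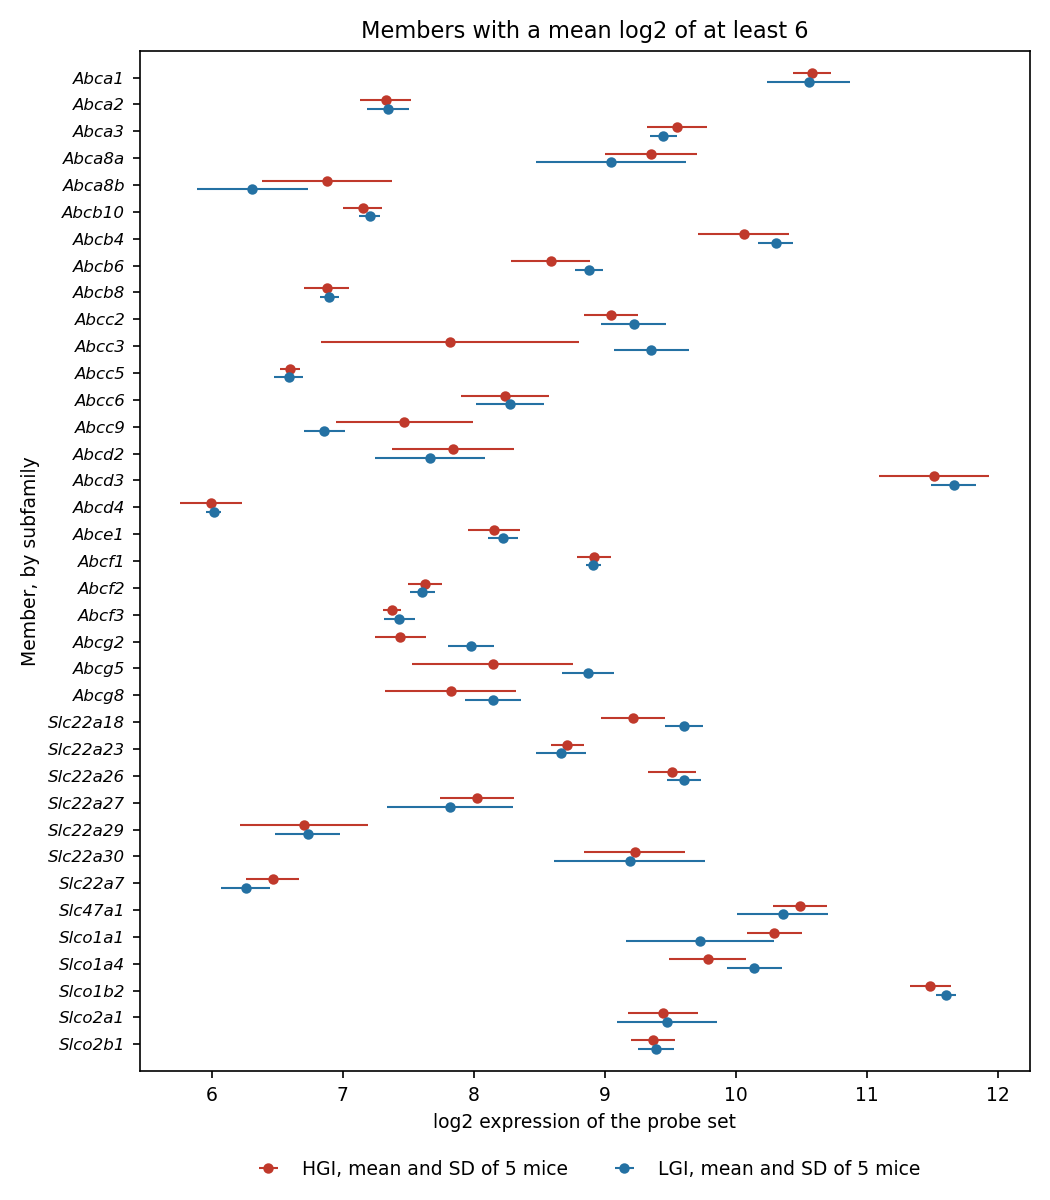
Log2 expression (horizontal axis) of the 37 members whose mean log2 reached 6, by subfamily, as the mean and SD of 5 HGI and 5 LGI mice. Levels of different genes come from different probes and are not comparable. The SD bars of the diets separate at 3 genes, Abcc3, Abcg2 and Slc22a18, and at 28 of the 37 the means differ by less than the larger SD.

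Abcc9, also called SUR2, is a regulatory subunit of ATP-sensitive potassium channels found in vessel wall and stellate cells, not a pump. It read 7.57, 7.57, 6.58, 7.70 and 7.93 log2 in HGI and 6.88, 7.11, 6.75, 6.70 and 6.84 in LGI. HGI 3 was the lowest of all 10 mice and the other 4 HGI mice lay above every LGI mouse. The difference was 0.61 ± 0.20 (adjusted p = 0.463), and its other probe sets stood at 0.39 and 0.73 (adjusted p = 0.508 and 0.388). Without HGI 3 it was 0.84 and passed (adjusted p = 0.0208). Of 7 stellate cell markers 5 lay above 0, 0 passed and 1 was higher and 1 lower at an unadjusted p under 0.05; their mean level ranged from 6.88 to 7.31 log2 in HGI and from 6.61 to 7.20 in LGI, and was lowest of the HGI mice in HGI 3. Col1a1 was below the median of every array. Of all named genes 41.8% lay above 0, and 3.07% were higher and 6.23% lower at an unadjusted p under 0.05. The markers at an unadjusted p under 0.05 were Rgs5, of mural cells (0.50, adjusted p = 0.592), and Des, the desmin gene (-0.21, adjusted p = 0.543). The part of these cells in the Abcc9 difference was not tested.

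The Abca proteins move lipids across membranes. Abca8b read 6.71, 7.42, 6.23, 6.70 and 7.34 log2 in HGI and 6.70, 6.42, 6.54, 5.61 and 6.27 in LGI. HGI 2 and HGI 5 were high and LGI 4 low, with overlap among the others. The difference was 0.57 ± 0.24 (adjusted p = 0.598), and 0.40 without LGI 4. Its neighbour Abca8a stood at 0.31, adjusted p = 0.838, but at 0.05 without LGI 4, whose value was 8.03 against 9.18 or more in the other LGI mice. Abca1, which loads cholesterol onto apolipoprotein A-I, read 10.58 ± 0.15 against 10.56 ± 0.31 log2 (SD, n = 5 each), a difference of 0.02 ± 0.14 (adjusted p = 0.985). Abca2 and Abca6 stood at -0.02 and -0.10 (adjusted p = 0.985 and 0.927), and the other 9 Abca genes between -0.16 and 0.18.

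Among the ABC members of mitochondria, peroxisomes and the cytosol, Abcb6 alone was at an unadjusted p under 0.05. Abcb6, a porphyrin carrier, read 8.10, 8.65, 8.92, 8.71 and 8.55 log2 in HGI and 8.69, 8.93, 8.90, 8.94 and 8.92 in LGI, so that HGI 1 was low and HGI 3 and HGI 4 lay inside the LGI range. Its difference was -0.29 ± 0.13 (adjusted p = 0.637) and -0.17 without HGI 1. Abcb10, a mitochondrial protein of haem synthesis, stood at -0.05, adjusted p = 0.941, and the other 2 Abcb genes at -0.08 and -0.02. Of the peroxisomal importers of fatty acyl chains, Abcd3 (PMP70) stood at -0.15, adjusted p = 0.904 and Abcd2 at 0.18, adjusted p = 0.918; without HGI 1 Abcd3 was at 0.01, and without LGI 4 Abcd2 was at -0.01. Abcd4, of lysosomal cobalamin export, stood at -0.02, adjusted p = 0.985. Abce1, which splits ribosomes after translation, stood at -0.07, and Abcf1, Abcf2 and Abcf3 at 0.00, 0.02 and -0.06 (adjusted p from 0.927 to 0.999 for these 4 genes).

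Of the other members outside the liver's main transport routes, Abcc6, the hepatic protein whose loss causes ectopic calcification, stood at -0.04, adjusted p = 0.979. Abcc5, an exporter of cyclic nucleotides, stood at 0.01, adjusted p = 0.988. Abcg1, a cholesterol exporter of macrophages, stood at 0.07, adjusted p = 0.919. The remaining 4 Abcc genes lay between -0.14 and 0.18 and the remaining 2 Abcg genes at -0.13 and -0.10. The means of both diets lay under the median of every array at 21 members, and 43 of the 80 members had a mean log2 under 6. Among those 43, 4 were lower and 0 higher at an unadjusted p under 0.05, beside 3.92% and 2.59% of all named genes with a mean under 6. Of the 43, 2, Abcc4 and Slc22a4, had no overlap, beside 1.28% of such genes.

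Among the 7 members of a mean log2 above 5 that were lower at an unadjusted p under 0.05, HGI 1 was the lowest mouse at 6, while Abcc4 was lowest in HGI 2. HGI 1, HGI 2, HGI 4 and HGI 5 were each below the LGI mean at all 7, HGI 5 by 2.22 at Abcc3, 1.21 at Abcg5 and 0.72 at Abcg2. The 7 were picked as lower in these same mice, so HGI values below the LGI mean follow largely from the pick. HGI 3 was nearest to the LGI mean at 5 of these 7 genes and HGI 2 at the other 2, Abcc3 and Slc22a18. Among all named genes whose mean log2 reached 6, HGI 1 held the lowest value at the 54.2% given above and HGI 5 at 3.49%, and the part of the arrays in these differences was not tested.

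**Figure D4:**
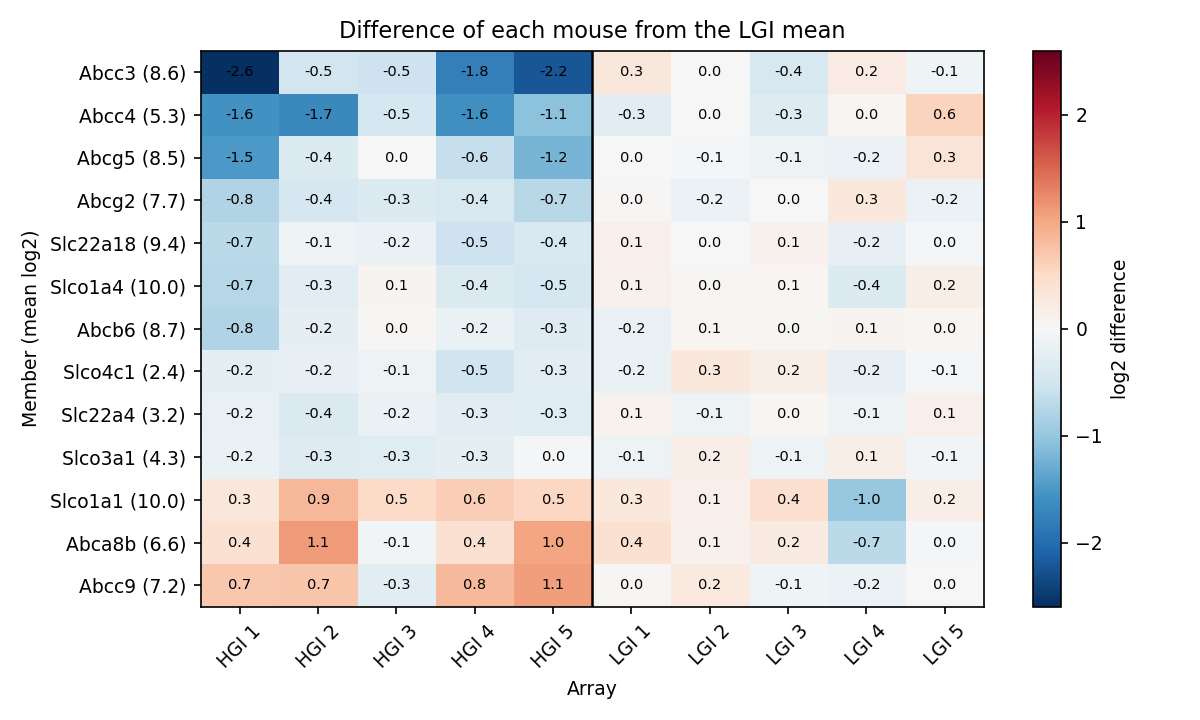
Difference of each mouse from the LGI mean (log2, colour and printed value) for the 13 members with an unadjusted p under 0.05, with the mean log2 of each gene in brackets. HGI 1 and HGI 5 show the lowest values at Abcc3, Abcg5 and Abcg2, and HGI 3 lies within 0.1 of 0 at Abcg5, Abcb6 and Slco1a4.

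With each array left out in turn, none of the 13 members at an unadjusted p under 0.05 changed sign. The 13 were picked by that p in these same data, so a kept sign is no separate support. Slco1a1 went from 0.57 to 0.32 without LGI 4, and Abcb6 from -0.29 to -0.17 without HGI 1, while Abcc3 and Abcc4 kept differences beyond -1.1. The number of members called was 2, Abcc4 and Abcc9, without HGI 3, and 0 without any other single array. Without HGI 3, 0.165% of all named genes were called.

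**Figure D5:**
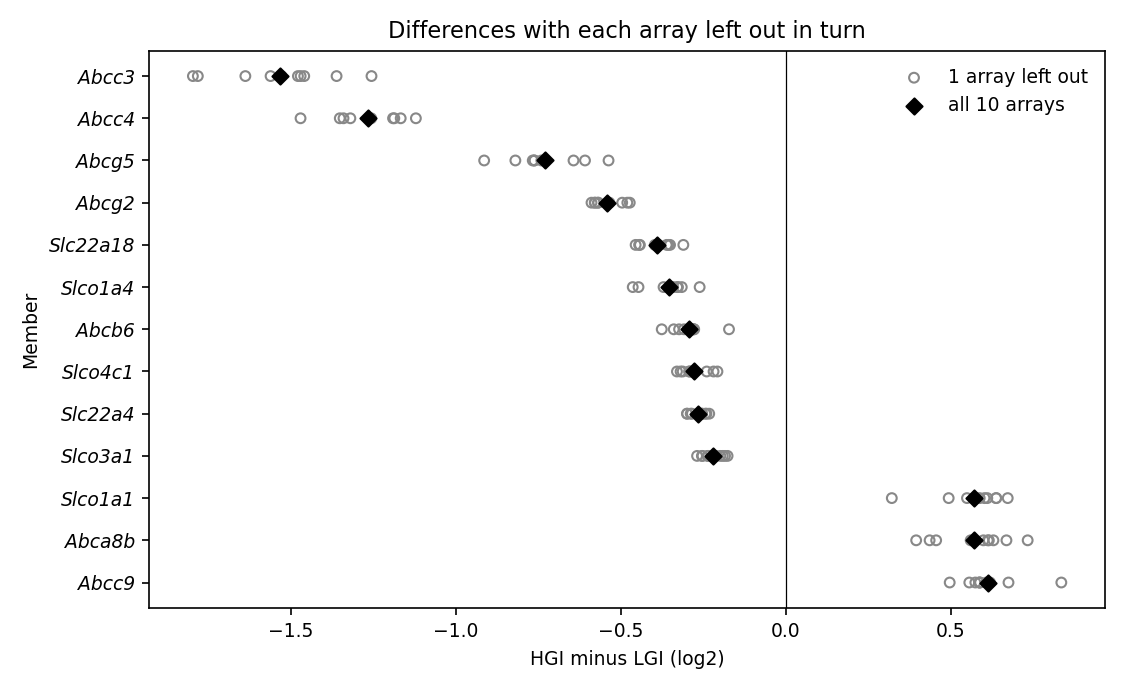
HGI minus LGI difference (log2, horizontal axis) of the 13 members at an unadjusted p under 0.05, with all 10 arrays (diamonds) and with 1 array left out (circles). No circle crosses 0, and the circle of Slco1a1 nearest to 0 is that without LGI 4. The 13 were picked by that p in these same data.

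Other genes of hepatic transport were read from a list of 29, of which 27 had a named probe set. None passed, and the median difference was -0.01. At an unadjusted p under 0.05, 4 of the 27 were lower and 1 higher, beside 6.23% and 3.07% of all named genes. Slc51b, a subunit of the OST carrier that moves bile acids into blood beside Abcc3, had the smallest p. It read 5.15, 5.21, 5.30, 5.21 and 5.40 log2 in HGI and 5.91, 5.92, 5.64, 5.41 and 5.51 in LGI, without overlap, with a difference of -0.43 ± 0.11 (adjusted p = 0.272). Its partner Slc51a, near the array medians in both diets, stood at -0.08, adjusted p = 0.942.

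Abcb11, the canalicular bile salt export pump, read 10.42, 11.19, 10.65, 10.63 and 10.82 log2 in HGI and 11.45, 11.28, 11.24, 10.95 and 11.16 in LGI, with HGI 2 inside the LGI range. Its difference was -0.47 ± 0.14 (adjusted p = 0.377). Slc22a5, the carnitine carrier, stood at -0.57 ± 0.28 (adjusted p = 0.688), with LGI 4 highest at 9.26, and at -0.31 without LGI 4. Of 5 scaffold genes 4 lay above 0, beside 41.8% of all named genes. Slc9a3r1, a scaffold of apical membrane proteins, stood at -0.39 ± 0.13 (adjusted p = 0.476), and Pdzk1, another such scaffold and the one gene of the list that was higher at an unadjusted p under 0.05, at 0.30 ± 0.14 (adjusted p = 0.661). Of 11 regulators 0 passed and 1 was lower at an unadjusted p under 0.05, Nr1i2, the xenobiotic receptor PXR, which stood at -0.39, adjusted p = 0.627, while Nr1i3 (CAR), Nfe2l2 (NRF2) and Ahr stood at 0.13, 0.01 and 0.14. Tap1, Tap2 and Cftr, ABC genes whose symbols do not follow the family pattern, stood at -0.01, -0.06 and -0.18.

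The tissue read as liver: the 5 measured hepatocyte markers had a mean level of 13.70 to 13.95 log2 in HGI and 13.96 to 14.09 in LGI. Of these Cyp3a11 stood at -1.05, adjusted p = 0.0700, and the other 4 within 0.2 of 0. No marker of any list passed in limma. At an unadjusted p under 0.05, 7 of 45 were higher and 4 lower, beside 3.07% and 6.23% of all named genes. Of all named genes 41.8% lay above 0. All 8 Kupffer cell markers lay above 0 (7.53 to 8.41 in HGI, 7.23 to 8.03 in LGI), as did all 8 sinusoidal endothelial markers (6.50 to 7.12 against 6.35 to 6.68), among which Stab2 stood at 0.76, adjusted p = 0.217 and Pecam1 was below every array's median. The 4 measured erythroid markers also lay above 0 (6.99 to 8.13 against 5.95 to 7.18), led by Slc4a1 (2.25, adjusted p = 0.0625), with Ermap below every array's median. Cholangiocyte markers, 2 of 5 above 0, had mean levels of 3.76 to 4.15 against 3.81 to 4.05, with Krt7 and Cftr below that median. Lymphocyte markers, 3 of 4 above 0, had 4.35 to 4.65 against 4.31 to 4.49, with Ms4a1 and Nkg7 below it. In the list for kidney and gut, all 4 lay above 0 (4.39 to 4.56 against 4.22 to 4.46), and Umod, Slc34a1 and Lct were below the median. The remaining gene of that list, Fabp2, was bright, at 9.78 ± 0.31 against 9.32 ± 0.48 log2 (SD, n = 5 each). Its difference was 0.46 (limma, unadjusted p = 0.0463, adjusted p = 0.655). The part of all these cell types in the transporter differences was not tested.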

How the data were processed

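The authors' deposited values are log2 expression per probe set for 10 mouse liver arrays, made with RMA and R 2.6.1 per the submitters' processing notes. Genome build and further settings are not given in the sources used here. The table held 45101 probe sets; 64 control probe sets were left out and 45037 tested without a filter. Symbols came from the platform annotation (34945 probe sets with 1 symbol, 932 with several, 9160 with none), and 1 probe set shared by Slc22a29 and Slc22a30 was left out; IDs of 34741 matched RefSeq genes. The diets were compared in limma 3.58.1 (lmFit and eBayes, run under R 4.3.3), with Benjamini-Hochberg adjustment over all probe sets and a threshold of 0.05. The mice are separate samples; 5 arrays per diet limit the precision.

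Members, gene lists and motifs were chosen with earlier results of these data known. Named were members with the highest mean or the largest differences of their subfamily, the 12 of smallest p and a list of known hepatic transporters; some further values, such as those of Rgs5, Des, Pdzk1, Nr1i2 and Slc51a, were named after they were seen. In simulated data made for this comparison on 45037 probe sets, the fit recovered 87% of 100 simulated 2-fold changes and 99% of 100 simulated 4-fold changes. Of its 192 calls, 6 were false. The changes were placed only at probe sets with a mean log2 of at least 6, with independent normal noise and no array effects. These rates therefore do not cover the 43 dimmer members or arrays that stand apart, such as HGI 1. In the measured data, 17 probe sets were called higher and 12 lower, far fewer than the 192 simulated calls. More calls ease the adjusted threshold, so the rates are likely too high for the measured data. Same-numbered mice of the 2 diets were not treated as pairs. Alternatives were 2 signal filters, array weights, repeated quantile normalization, robust fitting on a variance trend, centring on the median, an unmoderated test, 3 choices of probe set, a replicate block, each array left out, and HGI 1 and LGI 4 left out together.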

Additional observations from a re-analysis of the deposited data

Results flagged for a closer look

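Among the 39 named members, 78 groups of 5 mice were searched for a mouse far from the other 4, and 12 held one. For independent groups, chance gives about 1 in 20, or 3.9. These groups share the same arrays, and many of the genes were named for their values. Hence 12 against 3.9 does not measure an excess over chance. LGI 4 was the outlying mouse in 6 of the 12. It was lowest of the LGI mice at Slco1a1 (8.73 against 9.86 or more), Slco1a4 (9.78 against 10.18 or more), Slc47a1 (9.74 against 10.46 or more), Abca8a (8.03 against 9.18 or more) and Abcd2 (6.93 against 7.75 or more), and highest at Abca1 (11.10 against 10.51 or less). HGI 1 was lowest of the HGI mice at Abcb4 (9.45 against 10.13 or more), Abcc2 (8.69 against 9.09 or more) and Abca6 (4.82 against 5.23 or more). HGI 3 was lowest at Abcc9 (6.58 against 7.57 or more). LGI 1 was lowest of its diet at Abcb6 (8.69 against 8.90 or more) and highest at Slc22a26 (9.83 against 9.57 or less).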

How the results depend on the processing

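Over the 22 alternatives (20 or 21 for Abcc4, Slc22a4, Slco3a1 and Slco4c1, which 1 or both of the signal filters removed), no member at an unadjusted p under 0.05 changed sign, and no direction is claimed for the others. The members at that p were picked from these same data, so their kept sign is no separate support. The count of members called was 0 with all 10 arrays. It was 0 to 2 with an array left out (2 without HGI 3) and 0 under every other alternative. Members without overlap numbered 4 to 7 with an array left out, most without HGI 3. Of all named genes, 2.17% had no overlap with all 10 arrays and 6.78% without HGI 1 and LGI 4. With fewer mice, groups overlap less often at any gene, so the rise to 7 is not read as a result about the members. Where only probe sets with a mean log2 of at least 6 were kept, 2 members had no overlap, beside 3.53% of named genes that bright. That filter left 37 members, of which 6 were lower at an unadjusted p under 0.05, and an Abcg median of -0.54 over its 3 brighter genes. Members higher at that p numbered 2 to 5 with an array left out. For unadjusted p with an array left out or with the replicate block, shares of all named genes are not given. The Abcb median ran from -0.27 to -0.094 with an array left out (nearest to 0 without HGI 1), and was -0.13 with array weights, -0.15 when a gene's probe sets were averaged and -0.057 without HGI 1 and LGI 4. The Slco median ran from -0.11 to -0.023 with an array left out and was -0.019 when probe sets were averaged. The Slc22a median ran from -0.0056 to 0.056 with an array left out, and was -0.0037 with array weights and -0.0060 without HGI 1 and LGI 4. The cause of these changes was not tested. With the replicate number as a block (replicate block), 0 members were called, 9 were lower and 4 higher at an unadjusted p under 0.05, and Abcc4 had an adjusted p of 0.114; deviations of same-numbered mice correlated at -0.13 to 0.04, so the numbers were not taken to pair the mice. Signals near an array's median limit what can be read at the 21 dim members.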

Other observations

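Within the HGI group, the mice lowest in Abcc3 and Abcg5, a pair of genes picked after their values were seen, were also lowest in Cyp3a11, a cytochrome P450 that is a classic target of the xenobiotic receptor PXR. Cyp3a11 read 11.84, 12.60, 12.83, 12.45 and 11.81 log2 in HGI 1 to HGI 5 and 13.51, 13.30, 13.16, 13.60 and 13.20 in LGI 1 to LGI 5. HGI 1 and HGI 5 were lowest and HGI 3 highest of the HGI mice, and no HGI mouse reached the LGI range. Nr1i2, the gene of PXR, read 6.12, 6.25, 6.98, 6.56 and 6.14 in HGI and 6.43, 7.03, 6.69, 6.79 and 7.06 in LGI, again with HGI 3 highest of its group. Among the LGI mice the orders differed, as LGI 1 was lowest in Nr1i2 but next to highest in Cyp3a11. Abcc4 had another order, with HGI 2 lowest at 4.30 and HGI 4 next at 4.38, and HGI 1 was the lowest of all arrays at 54.2% of named genes whose mean log2 reached 6. The 5 mice of a diet are too few for a correlation within a diet, and none is given. HGI 1 and HGI 5 also had the largest 3' excess of the HGI mice at the Gapdh and Actb controls. The parts of PXR and of RNA quality in these values were not tested. Slc51b, which moves bile acids to the blood as Abcc3 does, had its highest HGI value in HGI 5 (5.40), where Abcc3 was low at 7.13.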
